A study of Mus musculus with 12 samples.

Results

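Serglycin (Srgn), heparan sulfate 3-O-sulfotransferase (Hs3st1), cathepsin H (Ctsh), a secreted trypsin inhibitor (Spink1), vanin 1 (Vnn1), calbindin D9k (S100g) and Tmem163 are 7 mouse genes that were picked because their messenger RNA was far higher in embryonic stem (ES) cells lacking Polycomb proteins than in wild type ES cells. They were 7 of the 13984 genes that could be tested, and all 7 passed the filter on low signals. They were read by 9 of the 34945 probe sets that carried 1 gene symbol, with 2 probe sets each for Ctsh and Vnn1 and 1 for each other gene. Because the choice used the rise over wild type, that rise is given below as a description without a test. Tests are given only between the mutant genotypes, and even there the members had been chosen on the same mutant arrays.

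The arrays covered 4 genotypes with 3 biological replicates each: Ring1B deficient cells, Eed deficient cells, Ring1B/Eed double deficient cells and wild type cells. Per the labels, the mutants were made by gene targeting, and the double deficient line by targeting Ring1B in cells that already lacked Eed. The labels credit the wild type, Ring1B deficient and Eed deficient cells to 3 different earlier publications and name no second line of any genotype, so genotype and line cannot be told apart. Colony shape was the check that cultures were undifferentiated, and p values measure only the spread between replicates of these lines.

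Polycomb proteins keep developmental genes silent. Polycomb repressive complex 1 (PRC1) places ubiquitin on histone H2A through Ring1B, which the gene Rnf2 encodes, and Polycomb repressive complex 2 (PRC2) methylates histone H3 at lysine 27 and needs Eed for that activity. Many of their known targets encode transcription factors and signalling proteins. The 7 genes here encode neither: they act in secretory granules, on cell surface sugars, in lysosomes, in protease control, in vitamin metabolism and in calcium and zinc handling.

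Values are array signals on a linear scale, with a trimmed mean of 100 on every array and array medians between 19.07 and 28.01. The level below which 40% of an array's probe sets lay ran from 12.1 to 19.1, and a signal under it is called low here. The brighter Eed probe set averaged 1642 ± 283 in Ring1B deficient, 37.8 ± 13.1 in Eed deficient, 71.2 ± 21.0 in double deficient and 1428 ± 159 in wild type cells (SD, n = 3 each). The brightest Rnf2 probe set averaged 468 ± 65.7, 779 ± 168 and 383 ± 18.8 in Ring1B deficient, Eed deficient and double deficient cells, against 851 ± 124 in wild type cells, so 55% of the wild type signal remained in Ring1B deficient and 45% in double deficient cells. The second brightest Rnf2 probe set was also lower where Ring1B was targeted. Its means were 330 ± 23.1 (Ring1B deficient), 531 ± 106 (Eed deficient) and 275 ± 22.6 (double deficient), against 632 ± 74.6 in wild type cells. A much dimmer probe set of the gene was higher where Ring1B was targeted: its means were 60.2 ± 8.27 (Ring1B deficient), 22.3 ± 3.23 (Eed deficient) and 38.5 ± 3.796 (double deficient), against 29.9 ± 7.02 in wild type cells. The other Rnf2 probe sets were low on some or all arrays. Where these probe sets lie relative to the targeted part of the gene was not analysed here. All 15 genes of a list of pluripotent cell markers were above the low level in each genotype, wild type included.

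Srgn encodes the core protein of the proteoglycan that fills secretory granules of blood cells and is also made by other cell types. Srgn signals were 1124, 1592 and 1494 in Ring1B deficient cells, 1026, 1114 and 951.7 in Eed deficient cells and 865.3, 949.9 and 813.7 in double deficient cells, against 39.7, 60.5 and 75.9 in wild type cells. Each mutant array was far above each wild type array, and Ring1B deficient cells held the top of the range. Their mean was 1403 ± 247, against 58.7 ± 18.2 in wild type cells. Eed deficient and double deficient cells averaged 1030 ± 81.4 and 876 ± 68.8, and the arrays of the 3 mutants did not overlap one another.

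Hs3st1 encodes an enzyme that adds the 3-O-sulfate to heparan sulfate, a modification known for creating the binding site of antithrombin. Hs3st1 signals were 87.5, 136 and 96.7 in Ring1B deficient, 134, 185 and 161 in Eed deficient and 242, 321 and 246 in double deficient cells, against 7.06, 7.02 and 12.5 in wild type cells. It was low on 3 of 3 wild type arrays. The double deficient arrays lay above all other arrays, while the 2 single mutants touched: the lowest Eed deficient array, at 134, was below the highest Ring1B deficient array, at 136. Means were 107 ± 26.0 in Ring1B deficient, 160 ± 25.4 in Eed deficient, 269.8 ± 44.5 in double deficient and 8.86 ± 3.15 in wild type cells.

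Ctsh encodes a lysosomal cysteine protease that trims proteins from their amino terminus. Ctsh signals were 175, 442 and 198 in Ring1B deficient, 204, 619 and 290 in Eed deficient and 387, 460 and 375 in double deficient cells, against 16.8, 28.6 and 26.6 in wild type cells. All mutant arrays were above all wild type arrays, but the 3 mutants overlapped, since replicate 2 of each single mutant was far above its partners. Means were 271 ± 148, 371 ± 219 and 407 ± 46.0 in Ring1B deficient, Eed deficient and double deficient cells, against 24.0 ± 6.28 in wild type cells. The dimmer Ctsh probe set gave log2 changes over wild type of 2.86, 3.32 and 3.67 in the same order of mutants, beside 3.15, 3.57 and 3.85 from the brighter.

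Spink1 encodes a small secreted inhibitor of trypsin, best known from the pancreas. Spink1 signals were 349, 796 and 547 in Ring1B deficient, 492, 1717 and 339 in Eed deficient and 350, 227 and 223 in double deficient cells, against 225, 67.4 and 115 in wild type cells. It was the most variable of the 7 genes, with 1 Eed deficient array at 1717 and 1 wild type array at 225. Both single mutants were above all wild type arrays, whereas the double deficient arrays overlapped the wild type ones, so the picture of a strong rise did not hold for Spink1 in that genotype. Its means were 564 ± 224 in Ring1B deficient, 849 ± 756 in Eed deficient, 266 ± 72.4 in double deficient and 136 ± 80.7 in wild type cells.

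Vnn1 encodes a pantetheinase, a membrane-anchored enzyme that splits pantetheine, a breakdown product of coenzyme A, into cysteamine and pantothenate (vitamin B5). Vnn1 signals were 24.9, 66.1 and 42.1 in Ring1B deficient, 29.7, 84.0 and 54.6 in Eed deficient and 132, 212 and 176 in double deficient cells, against 8.21, 9.39 and 11.4 in wild type cells, which were low on 3 of 3 arrays. The single mutants covered much the same range, and the double deficient arrays lay above both. Means were 44.4 ± 20.7, 56.1 ± 27.2 and 173 ± 40.4 in Ring1B deficient, Eed deficient and double deficient cells, against 9.68 ± 1.64 in wild type cells. The dimmer Vnn1 probe set, at 53.9, 91.2 and 73.5 in double deficient and 1.35, 3.25 and 6.43 in wild type cells, gave log2 changes of 1.22, 1.25 and 3.18 over wild type in Ring1B deficient, Eed deficient and double deficient cells, beside 1.67, 1.96 and 3.58 from the brighter.

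S100g encodes calbindin D9k, a small calcium-binding protein that depends on vitamin D in the intestine, where it carries calcium across the cell. S100g signals were 34.0, 57.6 and 22.9 in Ring1B deficient, 37.7, 95.6 and 87.9 in Eed deficient and 167, 102 and 156 in double deficient cells, against 0.508, 0.441 and 0.453 in wild type cells. The wild type signals were below the 20th percentile of their array on 3 of 3 arrays, so only a bound on the wild type level was read there. The double deficient arrays were above all single mutant arrays. Means were 38.1 ± 17.7, 73.7 ± 31.4 and 142 ± 34.4 in Ring1B deficient, Eed deficient and double deficient cells, against 0.467 ± 0.0361 in wild type cells.

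Tmem163 encodes a membrane protein that transports zinc. Tmem163 signals were 10.7, 20.01 and 2.93 in Ring1B deficient, 36.1, 80.5 and 70.5 in Eed deficient and 86.5, 123 and 121 in double deficient cells, against 4.21, 1.33 and 2.16 in wild type cells. It was low on 2 of 3 Ring1B deficient arrays and 3 of 3 wild type arrays, and these groups overlapped, so a strong rise was seen in Eed deficient and double deficient cells and not in Ring1B deficient cells. Means were 11.2 ± 8.55 in Ring1B deficient, 62.4 ± 23.3 in Eed deficient, 110.2 ± 20.5 in double deficient and 2.57 ± 1.48 in wild type cells.

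**Figure D1:**
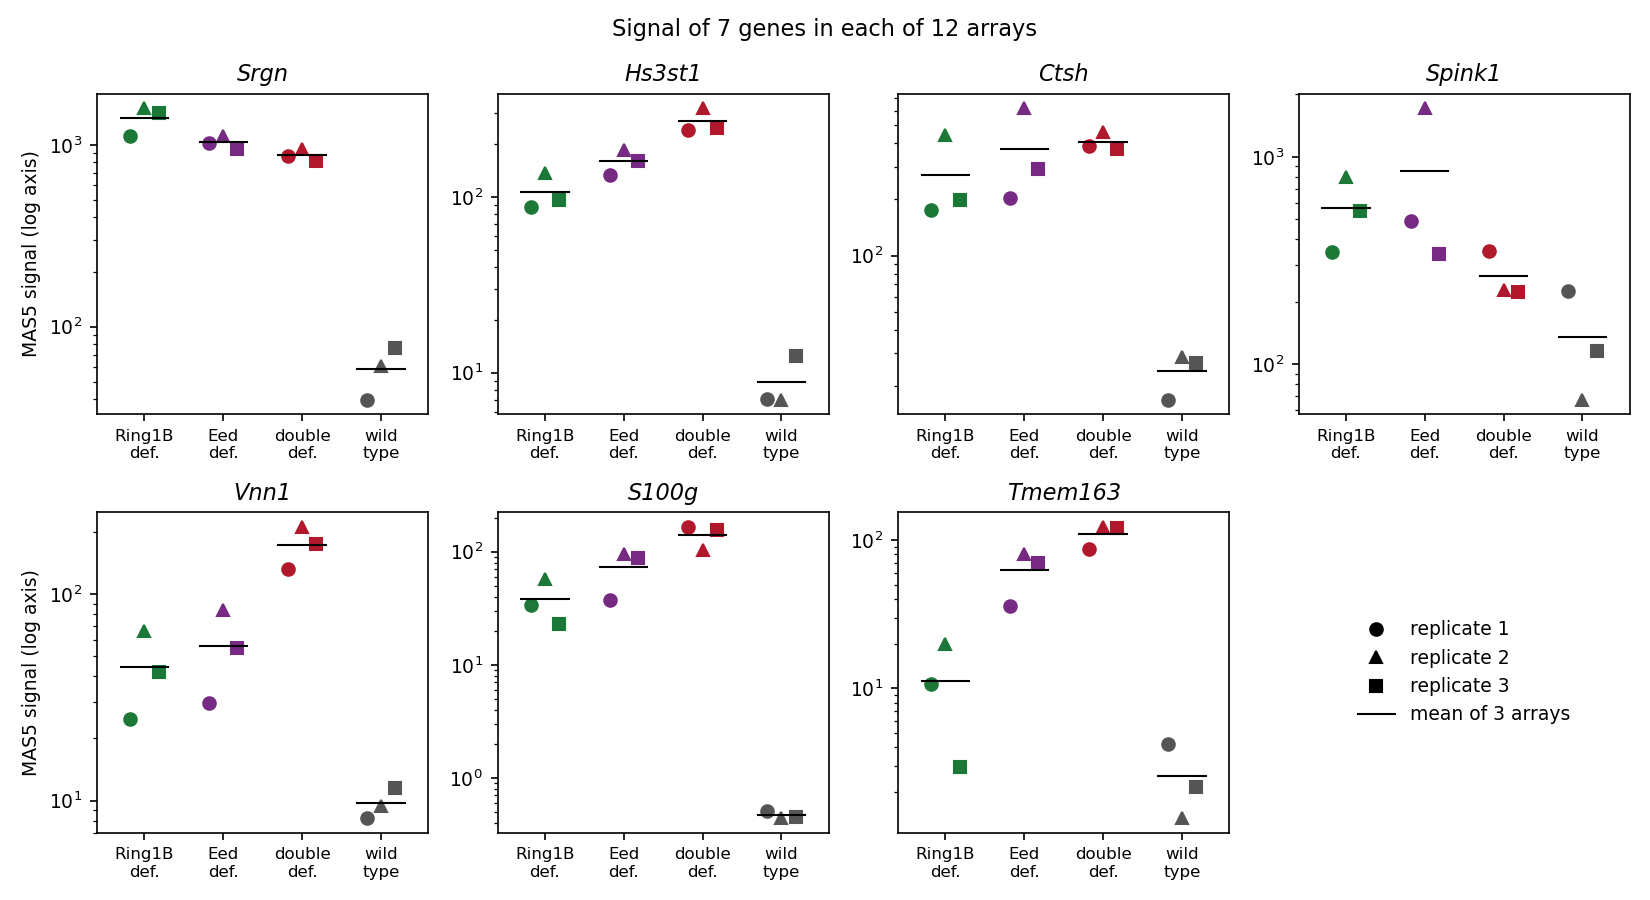
Signal of each of the 7 genes on each of the 12 arrays, on a log axis, with genotypes from left to right as Ring1B deficient, Eed deficient, double deficient and wild type. Each point is 1 array and the bar is the mean of 3; wild type lies far below the mutants for Srgn, Hs3st1, Ctsh and S100g, while Spink1 overlaps wild type in double deficient cells and Tmem163 in Ring1B deficient cells.

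The sequence around the start site shows how far the promoters of the members differed in CG content. RefSeq promoter windows of GRCm38.p6, 250 bases before to 50 bases after a start, were given for 4 of the 7 genes: Hs3st1, S100g, Tmem163 and Srgn, the last with 2 starts. Hs3st1 and S100g are printed because they held the most and the fewest CG pairs of these windows, and the upstream Srgn window because Srgn had another order of genotypes than these genes. All 3 windows are on the minus strand, printed 5′ to 3′, with each CG pair and each TATAAA in capitals.
Hs3st1, chr5:39644582-39644881: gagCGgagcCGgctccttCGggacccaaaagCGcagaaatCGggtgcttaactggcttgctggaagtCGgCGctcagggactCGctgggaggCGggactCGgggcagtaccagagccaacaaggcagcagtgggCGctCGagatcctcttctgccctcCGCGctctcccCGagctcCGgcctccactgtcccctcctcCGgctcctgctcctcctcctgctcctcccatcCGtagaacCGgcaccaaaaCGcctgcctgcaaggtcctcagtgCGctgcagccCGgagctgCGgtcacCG
S100g, chrX:162964550-162964849: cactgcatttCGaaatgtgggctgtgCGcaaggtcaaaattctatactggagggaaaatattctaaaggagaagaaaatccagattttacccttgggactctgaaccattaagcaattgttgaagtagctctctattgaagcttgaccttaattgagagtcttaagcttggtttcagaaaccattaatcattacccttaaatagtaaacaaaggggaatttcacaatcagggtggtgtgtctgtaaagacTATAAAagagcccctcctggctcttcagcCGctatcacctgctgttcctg
Srgn, chr10:62527396-62527695: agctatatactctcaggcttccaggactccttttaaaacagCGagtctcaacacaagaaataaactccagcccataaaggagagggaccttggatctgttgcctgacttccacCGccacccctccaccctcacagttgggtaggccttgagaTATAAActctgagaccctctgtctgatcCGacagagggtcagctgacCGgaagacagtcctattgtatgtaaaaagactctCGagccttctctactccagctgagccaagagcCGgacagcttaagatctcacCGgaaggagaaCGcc

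The Hs3st1 window held 24 CG pairs at 67% G and C, more CG pairs than 80% of all 32841 promoter windows, whose median was 7. The S100g window held 3 CG pairs at 41% G and C, and 23.3% of windows had fewer. The upstream Srgn window held 8 CG pairs and the second Srgn window, chr10:62507708-62508007, 4, and Tmem163, chr1:127677972-127678271, had 15. The letters TATAAA, searched on both strands, were in the S100g and upstream Srgn windows and in 13.6% of all windows; AGATAA was in none of the 5 member windows and in 11.2% of all. ACAAT, likewise on both strands, was found 2 times in the S100g window and 1 time in the upstream Srgn window, and 31% of all windows held it. A match of letters is a description of the window, not a binding site.

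On the log2 scale after adding 5 to each signal, the rises over wild type ranked high among all 13984 genes. Srgn was 4.49, 4.06 and 3.83 above wild type in Ring1B deficient, Eed deficient and double deficient cells (SE 0.19 each) and ranked 2, 5 and 16. Hs3st1 was 3.01, 3.58 and 4.32 above (SE 0.21) and ranked 16, 11 and 6. S100g was 2.90, 3.75 and 4.72 above with 5 added, sizes that the added amount sets, since its wild type signals lay below the 20th percentile. A log2 change of 2 or more was reached by 5, 6 and 6 of the 7 members in Ring1B deficient, Eed deficient and double deficient cells, where 0.465%, 0.93% and 2.18% of all genes reached it. Nothing is read from that contrast, since the members were picked for it.

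Ctsh was 3.15, 3.57 and 3.85 above wild type in the 3 mutants (SE 0.37), again in the order Ring1B deficient, Eed deficient, double deficient. Vnn1 was 1.67, 1.96 and 3.58 above (SE 0.34). Tmem163 was 0.97, 3.10 and 3.93 above (SE 0.37), and its rank went with that: 461 in Ring1B deficient cells and 22 and 13 in the other two. Spink1 was 2.10, 2.40 and 1.07 above (SE 0.52), with ranks of 56, 64 and 1296. The weakest rises of the 7 thus belonged to Tmem163 in Ring1B deficient and Spink1 in double deficient cells, the pairs whose arrays overlapped wild type.

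The order of the rises among the 7 genes depended on the amount added before the logarithm, because wild type signals of S100g, Tmem163, Hs3st1 and Vnn1 lay near or below the background. In double deficient cells S100g ranked highest of the 7 at 4.72 with 5 added and at 6.57 with 1 added, but with 20 added it was at 2.96, below Srgn, Hs3st1 and Ctsh, and Srgn led at 3.53. In Ring1B deficient cells Srgn led with 5 and 20 added and S100g, at 4.64, with 1 added. Spink1 was last in double deficient cells and Tmem163 last in Ring1B deficient cells under all 3 amounts.

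**Figure D2:**
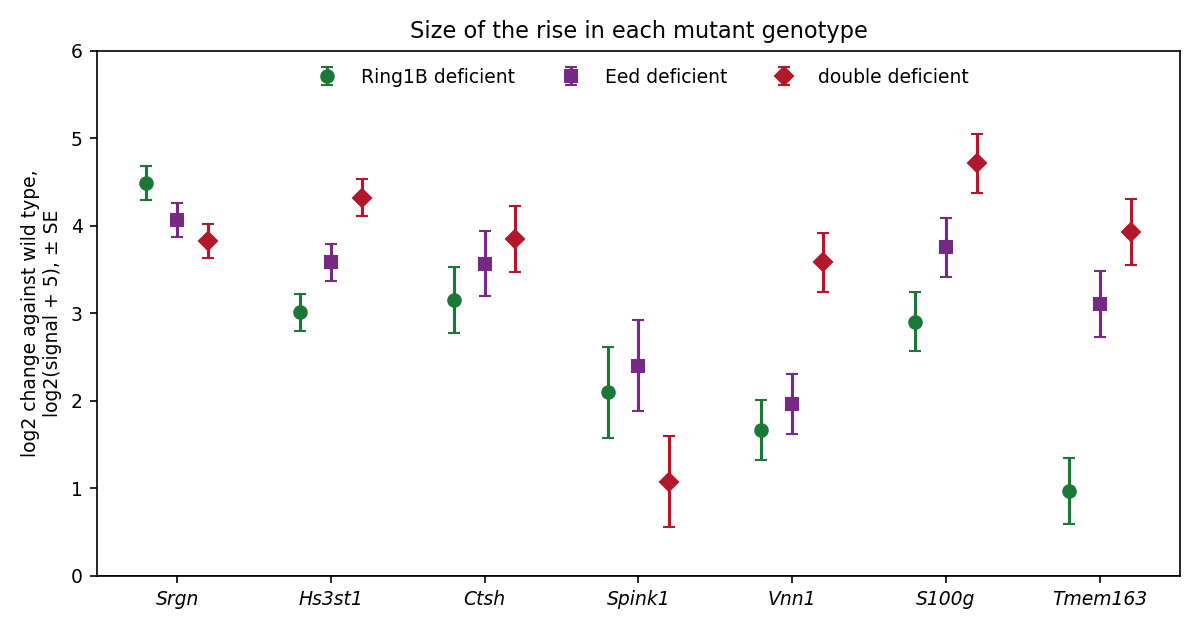
Log2 change over wild type of each of the 7 genes in Ring1B deficient, Eed deficient and double deficient cells, with 5 added to each signal; error bars are 1 SE of the limma fit. The plotted rise of 4.72 for S100g in double deficient cells depends on the amount added, and Srgn and Spink1 are the members that are not highest in double deficient cells.

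For 5 of the 7 genes (Hs3st1, Ctsh, Vnn1, S100g and Tmem163) the mean level was highest in double deficient, then Eed deficient, then Ring1B deficient, then wild type cells. The same order held for 202 of the 320 genes with a log2 change of 2 or more in at least 1 mutant (63.1%), and for 15% of all genes, so 5 of 7 was close to the share among strongly rising genes. Srgn ran the other way, Ring1B deficient above Eed deficient above double deficient, an order shared by 4 of those 320 genes (1.25%), Srgn included. Spink1 was highest in Eed deficient and lowest of the mutants in double deficient cells, an order held by 6 of the 320 (1.88%), Spink1 included. Not all steps of these orders were beyond the spread between arrays, as the tests between mutants show.

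The change in double deficient cells was also set against the sum of the 2 single changes on the log2 scale. For Srgn the double change of 3.83 was 4.72 below the sum of 8.55, and for Spink1 1.07 was 3.42 below 4.50. Ctsh was 2.87 below its sum of 6.72. For Hs3st1 the difference, double change minus sum, was -2.27 with 5 added, -2.72 with 1 and -1.44 with 20, and for S100g it was -1.93, -3.63 and -0.64, so its size was set by that amount. Vnn1 and Tmem163 came near their sums: the differences were -0.05 and -0.14 with 5 added, -0.29 and -0.68 with 1 added, and 0.32 and 0.26 with 20 added, so their sign depended on that amount. Among the other 313 strongly rising genes, 222 (70.9%) were below their sum, with a median difference of -0.59. No test is given, because each sum uses the wild type arrays on which the genes were picked.

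In double deficient against Ring1B deficient cells, 5 of the 7 genes differed: 4 rose and 1 fell, and 2 did not pass the test. Among all genes 18.7% passed, 12.7% higher and 5.98% lower. Tmem163, which was low on 2 of 3 Ring1B deficient arrays, rose by 2.96 on the log2 scale (95% interval 2.16 to 3.76, adjusted p 2.7e-04), with 3.47 at 1 added and 2.08 at 20 added. Vnn1 rose by 1.91 (1.18 to 2.65, adjusted p 0.00228), S100g by 1.82 (1.09 to 2.54, adjusted p 0.00289) and Hs3st1 by 1.31 (0.85 to 1.76, adjusted p 0.00131), each with all 3 double deficient arrays above all 3 Ring1B deficient arrays. Srgn was the gene that fell, with a log2 change of -0.66 (-1.08 to -0.25, adjusted p 0.0302) and arrays that did not overlap. That call was lost when any of 5 arrays was left out: adjusted p 0.0969 without Ring1B deficient replicate 2, 0.1002 without replicate 3, and 0.0800, 0.0515 and 0.110 without double deficient replicate 1, 2 or 3.

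Ctsh and Spink1 did not pass in that comparison. The Ctsh difference was 0.70 (95% interval -0.11 to 1.50, adjusted p 0.207), and it passed at 1.10 (adjusted p 0.0498) without Ring1B deficient replicate 2, the array at 442. The Spink1 difference was -1.02 (-2.14 to 0.10, adjusted p 0.185), with overlapping arrays. It passed at adjusted p 0.0245 in a fit of only these 2 genotypes. Over the 7 members the median difference was 1.31, beside 0.11 over all genes tested. Nothing is read from that contrast, since the members were picked for large rises on these mutant arrays. Among the other 313 strongly rising genes, 85.6% were highest in double deficient cells.

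Double deficient against Eed deficient cells gave 1 called gene of the 7, where 1.9% of all genes passed, 1.07% higher and 0.822% lower. Vnn1 rose by 1.62 (95% interval 0.89 to 2.35, adjusted p 0.0311), a 3.08-fold difference with no overlap of arrays. The call was lost without Eed deficient replicate 1 (1.26, adjusted p 0.0990) or 3 (adjusted p 0.0530) and without double deficient replicate 1, 2 or 3 (adjusted p 0.0607, 0.0999 and 0.144). Hs3st1 at 0.74 (0.28 to 1.19, adjusted p 0.0908), S100g at 0.97 (0.24 to 1.69, adjusted p 0.163) and Tmem163 at 0.83 (0.02 to 1.63, adjusted p 0.273) had all double deficient arrays above all Eed deficient arrays but did not pass. Srgn at -0.23 (-0.65 to 0.18, adjusted p 0.571) had all double deficient arrays below all Eed deficient arrays and did not pass either. Ctsh at 0.28 (-0.52 to 1.09) and Spink1 at -1.32 (-2.44 to -0.20) had adjusted p of 0.742 and 0.203 and overlapping arrays. The median of the 7 was 0.74, beside 0.06 over all genes, and nothing is read from it, given how the members were picked.

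Eed deficient against Ring1B deficient cells likewise gave 1 called gene, where 4.48% of all genes passed, 3.37% higher and 1.11% lower. Tmem163 rose by 2.14 (95% interval 1.33 to 2.94, adjusted p 0.00723), with no overlap of arrays. Since it was low on 2 of 3 Ring1B deficient arrays, the size depended on the amount added, at 2.60 with 1 (adjusted p 0.0144) and 1.39 with 20 (adjusted p 0.00492). S100g at 0.85 (0.13 to 1.58, adjusted p 0.185) and Hs3st1 at 0.57 (0.12 to 1.03, adjusted p 0.156) each had 8 of 9 pairs of arrays higher in Eed deficient cells, and S100g passed at 1.24 (adjusted p 0.0455) without Eed deficient replicate 1. With the replicate number as a block, Hs3st1 passed (adjusted p 0.0430) and 1706 genes were called in place of 626. Srgn at -0.43 (-0.85 to -0.01, adjusted p 0.253) did not overlap between the genotypes and did not pass. Ctsh at 0.41 (-0.39 to 1.22), Spink1 at 0.30 (-0.82 to 1.42) and Vnn1 at 0.29 (-0.44 to 1.02) had overlapping arrays and adjusted p of 0.630, 0.831 and 0.731. The median of the 7 was 0.41, beside 0.05 over all genes, and again nothing is read from it.

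**Figure D3:**
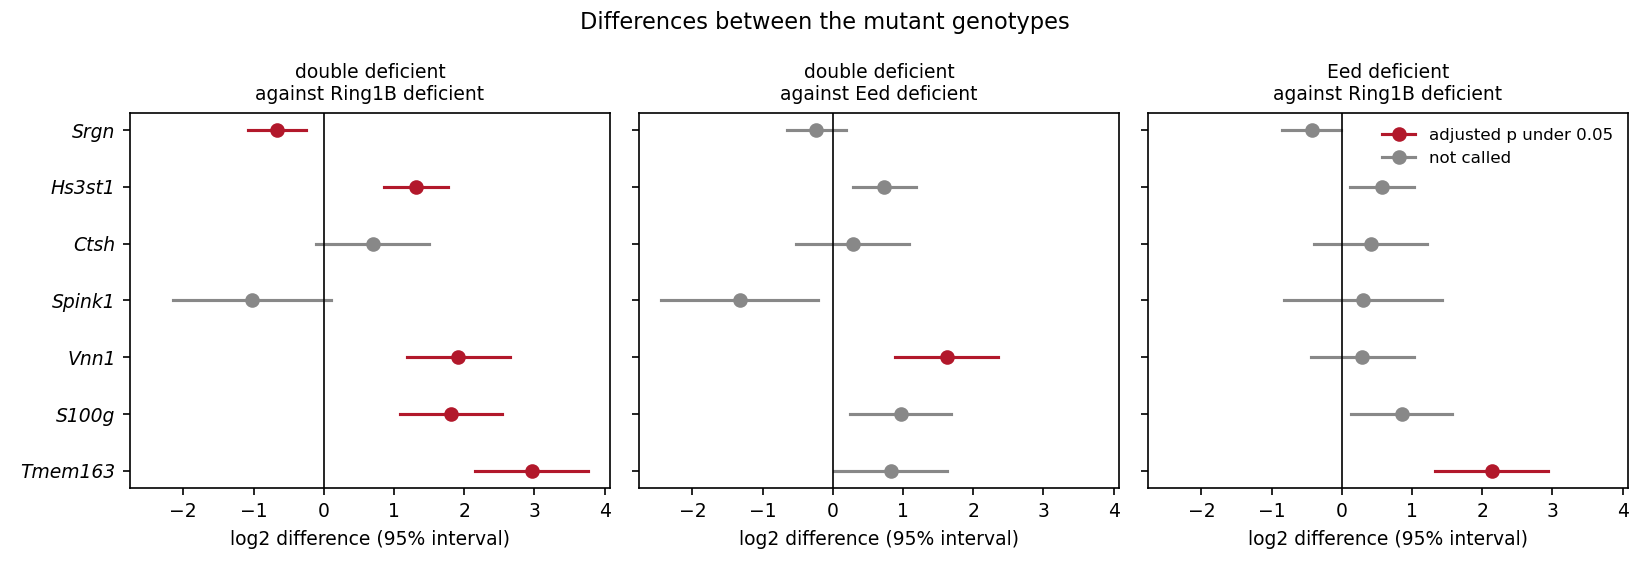
Log2 differences between mutant genotypes for each of the 7 genes with 95% intervals, in double deficient against Ring1B deficient, double deficient against Eed deficient and Eed deficient against Ring1B deficient cells. Tmem163 stands at 2.96 in double deficient against Ring1B deficient cells with 5 added, a size that ran from 2.08 to 3.47 with 20 or 1 added, and Srgn is below 0 in all 3 comparisons.

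Within each single mutant all members peaked in the same replicate, but they did not all move together in double deficient or wild type cells. Replicate 2 held the highest signal of its genotype for 7 of 7 genes in Ring1B deficient, 7 of 7 in Eed deficient and 5 of 7 in double deficient cells, against 1 of 7 in wild type cells. In double deficient replicate 2, S100g and Spink1 lay below their genotype means, at -0.42 and -0.20 on the log2 scale. Over all genes replicate 2 was highest for 36.5%, 35.6% and 36.2% in Ring1B deficient, Eed deficient and double deficient cells, against 41.3% in wild type cells. The median excess of replicate 2 over the other replicates was 0.92, 0.68 and 0.26 on the log2 scale for the members in the 3 mutants, against -0.04 in wild type cells. Endoderm markers moved with it in part: 17, 13 and 13 of 27 were highest in replicate 2 of Ring1B deficient, Eed deficient and double deficient cells, against 11 of 27 in wild type cells. Trophoblast markers were highest in replicate 2 for 5 of 10 in each mutant, against 7 of 10 in wild type cells. Fibroblast markers were highest there for 7, 0 and 10 of 16 in the 3 mutants, against 3 of 16 in wild type cells. The summed signals of endoderm and of trophoblast markers peaked in replicate 2 of all 4 genotypes, wild type included. That of pluripotent cell markers was lowest in replicate 2 of all 4. The part of these markers in the result was not tested. Without the 4 replicate 2 arrays, 5 members passed in double deficient against Ring1B deficient cells, all 5 higher: Ctsh then passed at 1.01 (adjusted p 0.0143) and Srgn did not (-0.62, adjusted p 0.102).

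**Figure D4:**
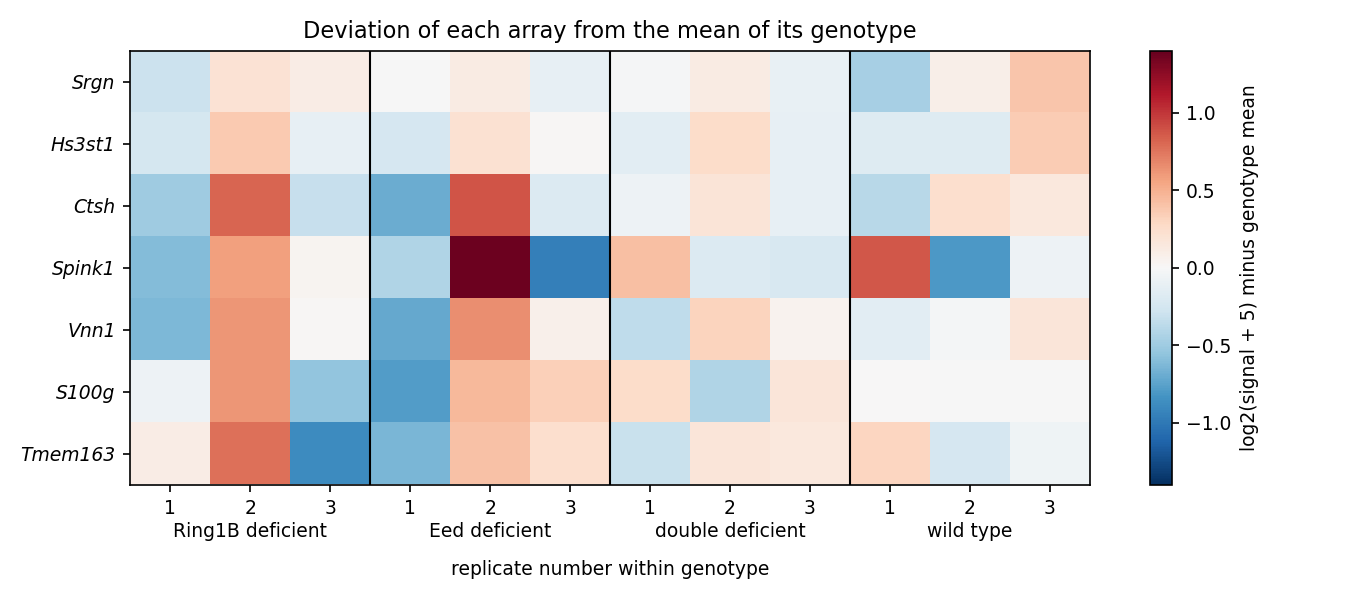
Deviation of each array from the mean of its genotype for each of the 7 genes, on the log2 scale, with arrays grouped by genotype in the order Ring1B deficient, Eed deficient, double deficient, wild type. Replicate 2 is highest for 7 of 7 genes in Ring1B deficient and Eed deficient cells, 5 of 7 in double deficient cells and 1 of 7 in wild type cells.

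For each member, the genes with the most similar pattern were found among all genes tested, by the root mean square difference of the 4 genotype means on the log2 scale, each gene centred on its own mean. With 5 added, Srgn was closest to Hoxa9 (0.186) and to Cubn, a receptor for endocytosis (0.194), and Cubn was among its closest 2 genes with 1 added (0.180) and with 20 added (0.308) as well. Vnn1 was closest to Dkk1, a secreted Wnt inhibitor (0.188), which stayed among its closest 2 with 1 added (0.195) and 20 added (0.162). Hs3st1 was closest to Lama1, a laminin chain of basement membranes (0.104), with 5 added, Ctsh to Hoxc4 (0.185), Spink1 to the lipoprotein gene Apoa1 (0.268), S100g to Lama1 (0.126) and Tmem163 to the growth factor gene Igf2 (0.135). The closest gene of each of these 5 members was another gene with 1 added and with 20 added.

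Among the members themselves the closest pair also depended on the amount added. It was Hs3st1 and S100g with 5 added (0.191), but Hs3st1 and Ctsh with 1 added (0.287, where Hs3st1 and S100g were at 0.673) and with 20 added (0.236, against 0.244). The farthest pair was Srgn and Tmem163 with 5 added (1.46) and 20 added (1.38), and Spink1 and S100g with 1 added (1.95). These patterns rest on 4 genotype means per gene.

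The members lay on chromosomes 10 (Srgn and Vnn1), 5 (Hs3st1), 9 (Ctsh), 18 (Spink1), X (S100g) and 1 (Tmem163) in the GRCm38.p6 gene table. Of the 42 tested genes that neighbour them, up to 3 on each side, 3 rose and 3 fell in Ring1B deficient, 8 rose and 2 fell in Eed deficient and 16 rose and 6 fell in double deficient cells, each against wild type. Over all genes 7.19% were called in Ring1B deficient (4.68% higher, 2.5% lower), 15.3% in Eed deficient (10.8% higher, 4.56% lower) and 30.8% in double deficient cells (19.5% higher, 11.4% lower). With each array centred on its median the double deficient count was 12 higher and 8 lower, where 1691 of all 13984 genes were higher and 3141 lower. The genes next to Srgn fell in double deficient cells, Vps26a by 0.85 (adjusted p 8.6e-04) and Kifbp by 1.36 (adjusted p 4.3e-05), while Srgn itself was 3.83 higher. The genes next to Hs3st1 and to S100g passed in no mutant. Stx7, next to Vnn1, rose by 0.66 in Eed deficient (adjusted p 0.0477) and 0.59 in double deficient cells (adjusted p 0.0473). Adamts7 and Rasgrf1, beside Ctsh, rose by 0.83 (adjusted p 0.0297) and 1.13 (adjusted p 0.0353) in double deficient cells.

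Genes of the same families and pathways were read next, without the members themselves. Of 21 tested genes for proteoglycan core proteins, the family of Srgn, 1 rose and 2 fell in Ring1B deficient, 6 rose in Eed deficient and 10 rose in double deficient cells against wild type, with medians of 0.02, 0.46 and 0.71. Cd44, the hyaluronan receptor, rose by 2.92 and Spock1 by 2.29 in double deficient cells, with signals of 587 ± 52.2 and 54.6 ± 4.38, against 74.3 ± 16.9 and 7.61 ± 4.16 in wild type cells. Of 20 genes for heparan sulfate synthesis, the pathway of Hs3st1, 0 were called in Ring1B deficient, 2 rose and 1 fell in Eed deficient and 6 rose in double deficient cells. The double deficient count was 3 after quantile normalization and 1 after median centring. Hs6st2, a 6-O-sulfotransferase, rose by 1.90 in double deficient cells (adjusted p 4.0e-04).

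Of 24 cathepsin and lysosome genes, 4 rose in Ring1B deficient, 5 rose and 1 fell in Eed deficient and 8 rose in double deficient cells, with medians of 0.09, 0.21 and 0.37. Ctsc, the protease that activates granule serine proteases, rose by 2.57, 2.31 and 2.35 in the 3 mutants, and Lgmn, an asparagine-specific lysosomal protease, by 2.07, 2.22 and 2.16. Of 14 trypsin-type proteases and their inhibitors, the group of Spink1, 1, 2 and 7 rose and 0 fell. Tfpi, an inhibitor of blood coagulation, rose by 1.45, 1.70 and 1.80, and Tfpi2 by 1.99 in double deficient cells. Of 8 tested S100 genes, 2, 3 and 6 rose, among them S100a10, by 1.16, 1.42 and 1.50, and S100a4, by 2.41 in double deficient cells.

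Of 6 tested genes for vitamin D action and calcium transport, Calb1 was the only one that rose in double deficient cells, by 1.06, and 5 did not pass. Of 13 genes for pantetheine and coenzyme A metabolism, 0 passed in either single mutant, and Cdo1 and Pank3 rose by 0.72 and 0.66 in double deficient cells. After median centring that list had 1 higher and 2 lower in double deficient cells, so its direction was not settled. Of 26 zinc genes, 1 rose and 1 fell in Ring1B deficient, 3 rose in Eed deficient and 11 rose and 1 fell in double deficient cells. Slc39a8, a zinc importer, rose by 1.61, 2.18 and 2.51 in the 3 mutants, and Slc30a4 by 1.41 in double deficient cells. In double deficient cells 19.5% of all genes rose, against which the pantetheine list's 2 of 13 and the vitamin D list's 1 of 6 were no higher. Median centring left 5 zinc genes higher and 2 lower, 4 S100 genes higher and 8 proteoglycan genes higher and 2 lower. Over all 13984 genes it left 1691 higher and 3141 lower.

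**Figure D5:**
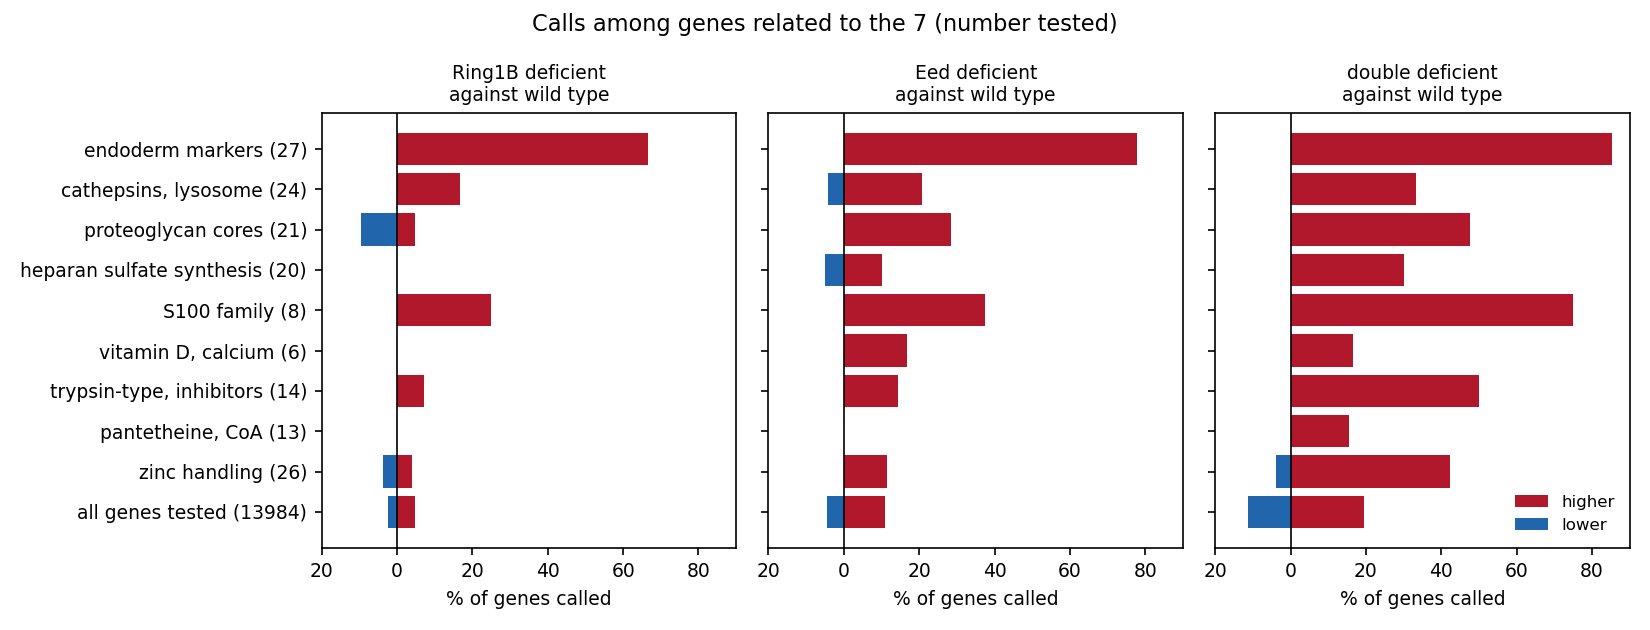
Share of tested genes in each list that were called higher or lower against wild type in Ring1B deficient, Eed deficient and double deficient cells, beside all 13984 genes. Endoderm markers stand at 18, 21 and 23 of 27 higher; the heparan sulfate list has 0, 2 and 6 of 20 higher.

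Markers of other cell types were also read, beside the share of all genes called against wild type. Over all genes 4.68% were called higher and 2.5% lower in Ring1B deficient cells. The shares were 10.8% and 4.56% in Eed deficient and 19.5% and 11.4% in double deficient cells. Of 27 genes that mark primitive, visceral or parietal endoderm, 18, 21 and 23 rose and 0 fell in Ring1B deficient, Eed deficient and double deficient cells. Their summed signals ran from 7530 to 10436 in Ring1B deficient, 10628 to 15768 in Eed deficient and 15263 to 18187 in double deficient cells, against 2510 to 3072 in wild type cells. Sox17 rose by 3.39, 4.26 and 5.33 and Lama1 by 2.79, 3.58 and 4.37. In bulk RNA a larger share of cells of a type and more RNA per cell cannot be told apart.

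Of 16 fibroblast and feeder cell markers, 1, 5 and 13 rose in the 3 mutants, and their summed signals ran from 1961 to 2716 in Ring1B deficient, 3314 to 7070 in Eed deficient and 6721 to 7458 in double deficient cells, against 2922 to 3340 in wild type cells. In Eed deficient cells only replicate 3 was at 7070, with 3558 and 3314 in replicates 1 and 2. Of 12 tested blood and macrophage markers (18 on the array), 0, 2 and 5 rose and 1 fell in double deficient cells, where 3 were lower after median centring. Their summed signals ran from 529 to 598 in Ring1B deficient, 449.6 to 969 in Eed deficient and 693 to 949 in double deficient cells, against 434 to 588 in wild type cells. The 969 came from Eed deficient replicate 3, with 449.6 and 558 in replicates 1 and 2. In double deficient cells Lyz2 rose by 2.61 (adjusted p 0.0137), Cd14 by 2.31 (adjusted p 9.1e-04) and Ctss by 1.79 (adjusted p 0.0134). Ptprc, the pan-leukocyte antigen, and Aif1 were low in all 4 genotypes. Of 16 mast cell and cytotoxic granule markers, 6 could be tested, and 0, 1 and 2 rose, with sums from 118 to 139.8 in Ring1B deficient, 109 to 185 in Eed deficient and 151 to 232 in double deficient cells, against 113 to 124 in wild type cells. The top Eed deficient sum, 185, came from replicate 3, with 140 and 109 in replicates 1 and 2. Mcpt8 rose by 1.79 (adjusted p 0.0308) and Hdc by 1.77 (adjusted p 0.00628) in double deficient cells. Their signals there were 33.4 ± 6.26 and 24.4 ± 13.1, against 8.30 ± 10.1 and 3.06 ± 2.02 in wild type cells. Gzma, Gzmc, Mcpt1, Mcpt2, Mcpt4, Fcer1a, Ms4a2 and Nkg7 were low on every array of all 4 genotypes. Of 10 tested trophoblast markers, 4, 8 and 8 rose, with sums from 1555 to 3112 in Ring1B deficient, 4059 to 6832 in Eed deficient and 5043 to 8365 in double deficient cells, against 746 to 1400 in wild type cells. Of 15 pluripotent cell markers, 2 rose in Ring1B deficient, 2 rose and 1 fell in Eed deficient and 1 rose and 7 fell in double deficient cells, and median centring gave 3 lower in Eed deficient and 8 lower in double deficient cells. Their summed signals ran from 21263 to 23265 in Ring1B deficient, 18842 to 22393 in Eed deficient and 16142 to 18355 in double deficient cells, against 22388 to 23880 in wild type cells. Calls over all genes likewise grew from Ring1B deficient to double deficient cells, from 4.68% to 19.5% higher and from 2.5% to 11.4% lower. The part of the marker genes of these lists in the members' levels was not tested.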

How the data were processed

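The deposited values are array intensities on a linear scale, made by the authors with MAS5, per the submitters' processing notes. Neither its version nor its settings were stated in the labels or headers. RNA was extracted with Trizol and hybridised to Affymetrix mouse expression arrays by a commercial provider, per the labels' protocols. Of 45101 probe sets, 64 array controls were left out and 34945 carried 1 symbol in the platform annotation.

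To each signal 5 was added, near the median 20th percentile of 4.56, before taking log2, with no further normalization. Probe sets above their array's 40th percentile on at least 3 of 12 arrays were kept, and the brightest stood for each gene, 13984 genes in all. A model with 1 mean per genotype was fitted with limma 3.58.1 in R 4.3.3 (empirical Bayes with an intensity trend), and p-values were adjusted by Benjamini-Hochberg over all genes; a gene was called below 0.05. The fit was tested on simulated data with independent noise on each array. The shared deviations of same-numbered replicates, given below, were not simulated, so that test does not cover them. Precision is limited by the 3 arrays per genotype.

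The 7 members were given. The 14 gene lists hold genes of the members' pathways and markers of other cell types, and up to 3 called genes of a list are named. Members and lists were chosen with earlier results of these data known. Same-numbered replicates deviated together (correlation over 0.1) in 3 of 3 pairs of Eed deficient against Ring1B deficient arrays, at 0.40, 0.61 and 0.18, where the block is given beside the result, and in 2 of 3 pairs of each other comparison, where the numbers were not taken as pairs. The alternatives were quantile normalization, median centring, 1 or 20 added, no filter or a 60th percentile filter, no trend, only the 2 genotypes compared, a replicate block, the mean of probe sets, and each array left out. Leaving out all replicate 2 arrays was chosen after seeing the data. Promoter windows came from RefSeq, GRCm38.p6.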

Additional observations from a re-analysis of the deposited data

Results flagged for a closer look

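Srgn had log2 changes of opposite sign between pairs of genotypes that differ in the same protein. Of these, the change in double deficient against Eed deficient cells did not pass the test. Loss of Ring1B went with a log2 change of -0.23 in cells that already lacked Eed (double deficient against Eed deficient), where it was 4.49 in cells with Eed (Ring1B deficient against wild type). Double deficient against Ring1B deficient cells, which differ in Eed, likewise gave -0.66, where Eed deficient against wild type cells gave 4.06. Per the labels, the double mutant descends from Eed deficient cells, so no Eed loss within the Ring1B deficient line was measured. The -0.66 and the rises over wild type compare lines from different sources, so genotype and line cannot be told apart there. The groups did not overlap in any of these comparisons. However, the rises over wild type are those Srgn was picked on. The -0.66 was no longer called when any of 5 single arrays was left out. The difference itself was not tested. Groups of 3 arrays were not screened for outlying arrays.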

How the results depend on the processing

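Between mutants, 459 of 483 recomputed values of the 7 genes kept their direction and their side of the threshold. The 6 that turned were small and uncalled. In Eed deficient against Ring1B deficient cells, leaving out 1 array each gave -0.0304 to 0.65 for Vnn1 (-0.0242 without Ring1B deficient replicate 1 and the lowest without Eed deficient replicate 2), -0.0293 to 0.82 for Ctsh and -0.38 to 0.78 for Spink1, both lowest without Eed deficient replicate 2; Spink1 was -0.10 with all replicate 2 arrays left out. In double deficient against Eed deficient cells Ctsh ran from -0.0641, without Eed deficient replicate 1, to 0.72. With 1 array left out, the number of members called was 4 to 5 in double deficient against Ring1B deficient, 0 to 1 in double deficient against Eed deficient and 1 to 2 in Eed deficient against Ring1B deficient cells. Genes called against wild type ranged over 620 to 1053 in Ring1B deficient, 1351 to 2249 in Eed deficient and 3021 to 4426 in double deficient cells. In a fit of only the 2 genotypes compared, 562 genes were called in Ring1B deficient and 1297 in Eed deficient against wild type. With the replicate number as a block, members called were 6, 2 and 2 in the 3 mutant comparisons, in the order above; Hs3st1 then passed in double deficient against Eed deficient (adjusted p 0.0170) and Eed deficient against Ring1B deficient cells (adjusted p 0.0430), and Ctsh in double deficient against Ring1B deficient cells (adjusted p 0.0211). The block gave 2224, 3788 and 5902 genes in Ring1B deficient, Eed deficient and double deficient against wild type; 27 of 36 comparisons had an array correlating best with its own number. Between mutants the count of genes ran from 1324 to 4373 (2617 as reported) in double deficient against Ring1B deficient, 45 to 1303 (265) in double deficient against Eed deficient and 186 to 1706 (626) in Eed deficient against Ring1B deficient cells, highest under the block and lowest with 1 array left out. Median centring turned the split in double deficient against wild type to 1691 higher and 3141 lower, beside 2723 and 1589, and in Eed deficient to 1150 and 795, beside 1509 and 637. It moved the median difference of all genes by -0.25 in double deficient against Ring1B deficient or wild type and by -0.17 against Eed deficient cells (log2), and changed no call of a member. The causes were not tested. Of 1035 recomputed counts of called genes in the lists and among neighbours, 133 moved by over 1.5 times. Against wild type, 19 of 483 member values moved by more than the replicate spread, all with 1 or 20 added. Signals near background limit the size of changes for S100g, Tmem163, Hs3st1 and Vnn1.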
